A study of Homo sapiens with 6 samples.

Results

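The 10 genes described here are immediate early genes: the zinc finger transcription factor genes EGR1, EGR2 and EGR3, the immediate early response genes IER2, IER3 and IER5, the activity-regulated gene ARC, the transcription factor gene SRF, and the phosphatase genes DUSP1 and DUSP2. They were chosen by symbol, each symbol matched exactly 1 row, and together they are 10 of the 31628 genes in the table. Their transcripts were measured by poly(A)-selected RNA-seq in HCT116 cells, an established human colon cancer line. In every library the cells carried ENL fused to an auxin-inducible degron (AID) and stably expressed AtAFB2, a plant ubiquitin ligase component, so this background is shared by all 3 groups. ENL, the product of MLLT1, reads acetylated histones. The washout group was given auxin (IAA) for 3 h, washed with PBS and cultured for 48 h in normal medium, and the IAA group was given IAA for 3 h and harvested. The control group had no IAA, and each group has 2 libraries. The dose is written in the labels as 500 um and is taken here as micromolar. The labels mention selection of AID clones with puromycin and blasticidin and do not say how many clones were used. None of the 6 libraries comes from IAA-treated cells without the degron, so loss of ENL and an effect of IAA itself cannot be told apart. After washout the cells had also been in culture for 48 h longer, and this too cannot be told apart from removal of IAA. The comparisons ask which transcripts differ after ENL is degraded and whether they return once IAA is removed.

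Immediate early genes are transcribed within minutes of a growth factor or stress signal without new protein synthesis, mostly from RNA polymerase already poised near their starts, and their transcripts decay fast. Kinases of the ERK and p38 pathways phosphorylate ETS-type partners that sit with the serum response factor SRF on a sequence called the CArG box. They also act on CREB, which binds the cyclic AMP response element. The products then act as transcription factors (the EGR proteins), as regulators of survival and stress (the IER proteins) or as brakes on the kinases (DUSP1 and DUSP2).

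The deposited unit is FPKM, fragments scaled by gene length and library total. Totals worked out from the values lay between 16442840 and 16770850 reads, with 8220 to 8406 genes at an FPKM of 1 or more in each library. MLLT1 stood at 0.404 and 0.358 FPKM with IAA, against 0.412 and 0.427 FPKM in control, and its transcript did not differ detectably (limma-voom on recovered reads, log2 change -0.14, SE 0.1, adjusted p = 0.335). The gene span of MLLT1, introns included, is 14.68 times its exon length. Set on exon length, MLLT1 had about 5.93 and 5.25 FPKM with IAA, against 6.05 and 6.27 FPKM in control. ENL protein, on which the degron acts, was not measured here. All 7 epithelial markers matched were above a mean FPKM of 1, and their summed FPKM was 366 to 381 after washout, 309 to 315 with IAA and 377 to 390 in control. Among the 14 markers of stromal, endothelial and blood cells that could be matched, 0 reached that mean. Their summed FPKM was 0.782 to 0.818 after washout, 0.642 to 0.86 with IAA and 0.575 to 0.599 in control, mostly COL1A1, and CD3E was at 0. COL1A1 had a mean of 196.2 recovered reads. The marker values and the cut at 1 were not set on exon length, so a mean under 1 does not show that reads were few. The part of these shifts in the results below was not tested. Across the 8317 genes tested, those whose mean FPKM was 1 or more, limma called 1092 genes between IAA and control, 552 higher and 540 lower. Rescaling to TPM gave 397 higher and 647 lower. Between washout and IAA 643 were higher and 553 lower, and 804 higher and 400 lower after rescaling.

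Promoter windows of 250 bases before to 50 bases after the transcription start, from RefSeq on GRCh38.p14, matched 7 of the 10 genes by symbol, with 10 windows because EGR2 and SRF have several starts. IER3, ARC and EGR3 are named only. Both strands were searched for the CArG box of SRF, TGACGTCA and its part TGACG (CREB), TGANTCA (AP-1), GCGNGGGCG (EGR zinc fingers), CCGGAAGT (ETS factors) and TATAAA. The CArG box was present in windows of 3 genes, EGR1, EGR2 and SRF, and in 1.29% of the 35116 promoter windows of all genes. The stretches below hold these matches and are shown because EGR1 and EGR2 had the largest changes of the 10 genes while SRF, which carries the same element, did not pass. DUSP1 and DUSP2, neither of which passed by limma with IAA, are shown beside them as a pair of phosphatases with different elements. Whether an element goes with a change was not tested. Each stretch ends at the base before the start and reads 5′ to 3′ on the gene's strand. Capitals mark the CArG box in EGR1, EGR2 and SRF, TGACGTCA in DUSP1 and GCGNGGGCG in DUSP2.
EGR1 (chr5:138465329-138465478, plus strand): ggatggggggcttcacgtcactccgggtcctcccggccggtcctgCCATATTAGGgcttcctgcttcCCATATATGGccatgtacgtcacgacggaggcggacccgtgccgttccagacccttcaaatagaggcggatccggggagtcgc
EGR2 (chr10:62816367-62816486, minus strand): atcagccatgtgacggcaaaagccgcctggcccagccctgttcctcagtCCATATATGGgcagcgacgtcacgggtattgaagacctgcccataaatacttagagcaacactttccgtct
SRF (chr6:43171119-43171268, plus strand): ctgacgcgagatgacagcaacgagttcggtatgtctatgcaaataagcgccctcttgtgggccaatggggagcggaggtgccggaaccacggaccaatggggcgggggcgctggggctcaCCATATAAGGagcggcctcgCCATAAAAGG
DUSP1 (chr5:172771196-172771345, minus strand): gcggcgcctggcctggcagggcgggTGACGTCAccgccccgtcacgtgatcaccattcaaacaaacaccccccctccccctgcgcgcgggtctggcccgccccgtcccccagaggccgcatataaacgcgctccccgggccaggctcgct
DUSP2 (chr2:96145441-96145560, minus strand): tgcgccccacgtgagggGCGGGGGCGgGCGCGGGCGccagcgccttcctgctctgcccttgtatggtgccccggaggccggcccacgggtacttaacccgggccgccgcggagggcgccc

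Positions count from the start, with negative ones before it, and give the first base of a match. EGR1 has 2 CArG boxes at -105 and -83, with a TGACG on the antisense strand at -135 and another at -66. EGR2 has 1 CArG box at -71, at 1 of its 3 starts, flanked by TGACG at -110 and, on the antisense strand, at -54. At start 1 SRF has 2 CArG boxes at -30 and -10, a TGACG at -149 and, on the antisense strand, a TATAAA at 15. The window of SRF at start 2 has 0 motif matches. TGACG is common, with a match in 24.55% of all windows. The full TGACGTCA was found in DUSP1 alone of the 7 genes, at -125, and in 1.85% of all windows, and it holds a TGACG on each strand. DUSP1 has further TGACG matches at -172 and, on the antisense strand, at -111, and a TATAAA at -30 (11.53% of all windows). DUSP2 has 2 matches to GCGNGGGCG at -103 and -93, a motif found in 9.43% of all windows and once each in EGR1, SRF and a second start of EGR2. IER2 has a single TGACG, and IER5 has none of the motifs. TGANTCA (7.71%) and CCGGAAGT (4.14%) had no match in these 10 windows. These are matches of letters and say nothing of binding in these cells.

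**Figure D1:**
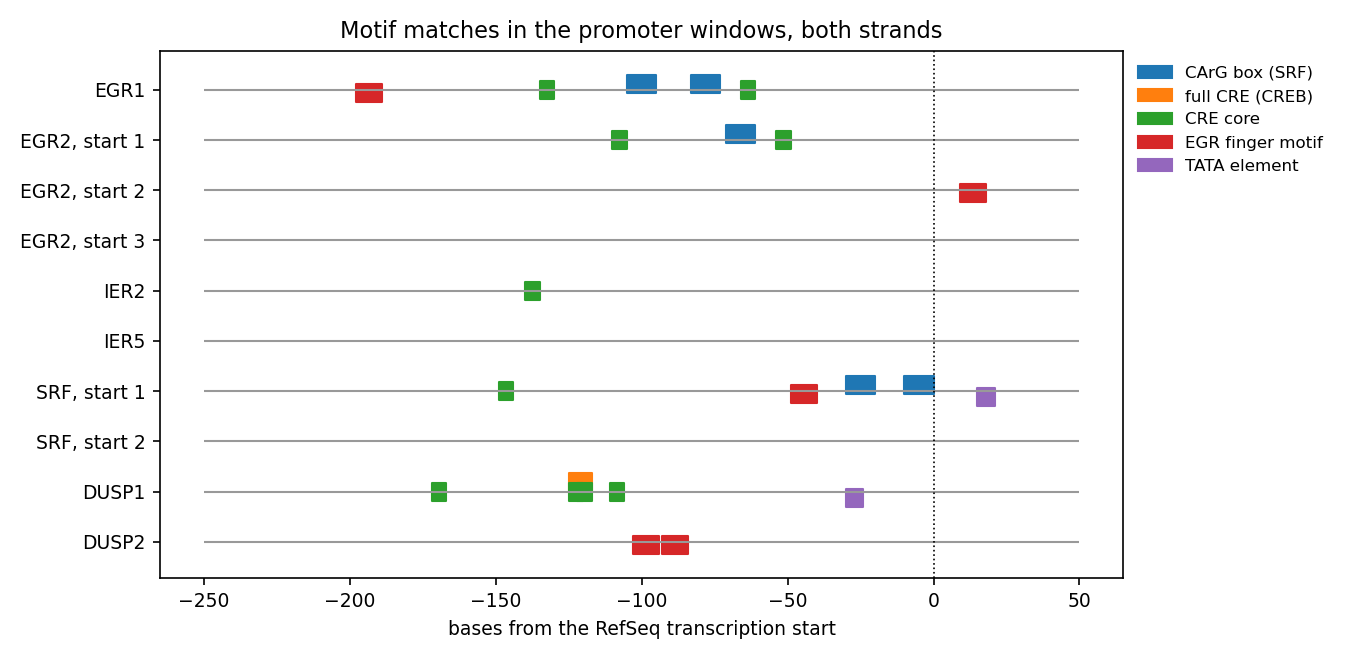
Positions of motif matches in the promoter windows of 7 genes, in bases from the RefSeq start (x axis), with 1 row per start and each coloured bar spanning a match on either strand (CRE core is TGACG, full CRE TGACGTCA). CArG boxes occur in EGR1 (2), EGR2 (1, at start 1) and SRF (2, at start 1), and the full CREB element in DUSP1 only.

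Levels differ widely among the 10 genes. For 7 of the 10 genes the FPKM values divide by the whole GENCODE 29 gene span, introns included. Levels between genes were therefore set on exon length by multiplying FPKM by the ratio of span to exon length in GENCODE 29 (29.25 for EGR2, which spans 107905 bases with 3689 exonic ones, and 1 to 2.43 for the others). On this exon scale the control means ran in the order IER3 (286 ± 8.8, SD, n = 2), SRF (52.4 ± 0.76), IER2 (46.5 ± 2), IER5 (42.7 ± 0.29), EGR1 (19.4 ± 1.9), DUSP2 (14.2 ± 0.27), DUSP1 (6.29 ± 0.63), ARC (2.67 ± 0.22), EGR3 (0.482 ± 0.14) and EGR2 (0.227 ± 0.067). The span did not give whole reads for IER5, ARC and SRF, so their exon-scale levels are approximate, and the order among SRF, IER2 and IER5 is not settled. Among the other 7 genes no neighbours in this order had overlapping control libraries. EGR2 and EGR3, at mean FPKM of 0.0149 and 0.481, lay below the filter of 1, so 8 of the 10 genes entered the limma test. These 2 genes were tested on recovered reads only (limma-voom).

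After 3 h of IAA the EGR genes, the 3 IER genes and ARC stood above control, SRF was level, DUSP1 was slightly higher and DUSP2 lower. By limma, 5 of the 8 tested genes rose (EGR1, IER5, ARC, IER2 and IER3) and 0 fell, where 6.64% of all tested genes rose and 6.49% fell. On recovered reads 6 of the 10 rose and 1 fell, against 14% and 10.3% of 14571 genes. Among those that rose, the reads of IER5 and ARC rest on a fitted gene length that is not unique. In FPKM the groups did not overlap in 9 of the 10, with 8 higher and 1 lower, and among the 8 genes above the filter 6 were higher and 1 lower, where 33.7% of all tested genes were higher and 28.2% lower without overlap. The median log2 change of the 8 genes was 0.3, and that of all tested genes 0.01. The genes were chosen with earlier results of these data known, so these counts describe them and test nothing about the group.

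**Figure D2:**
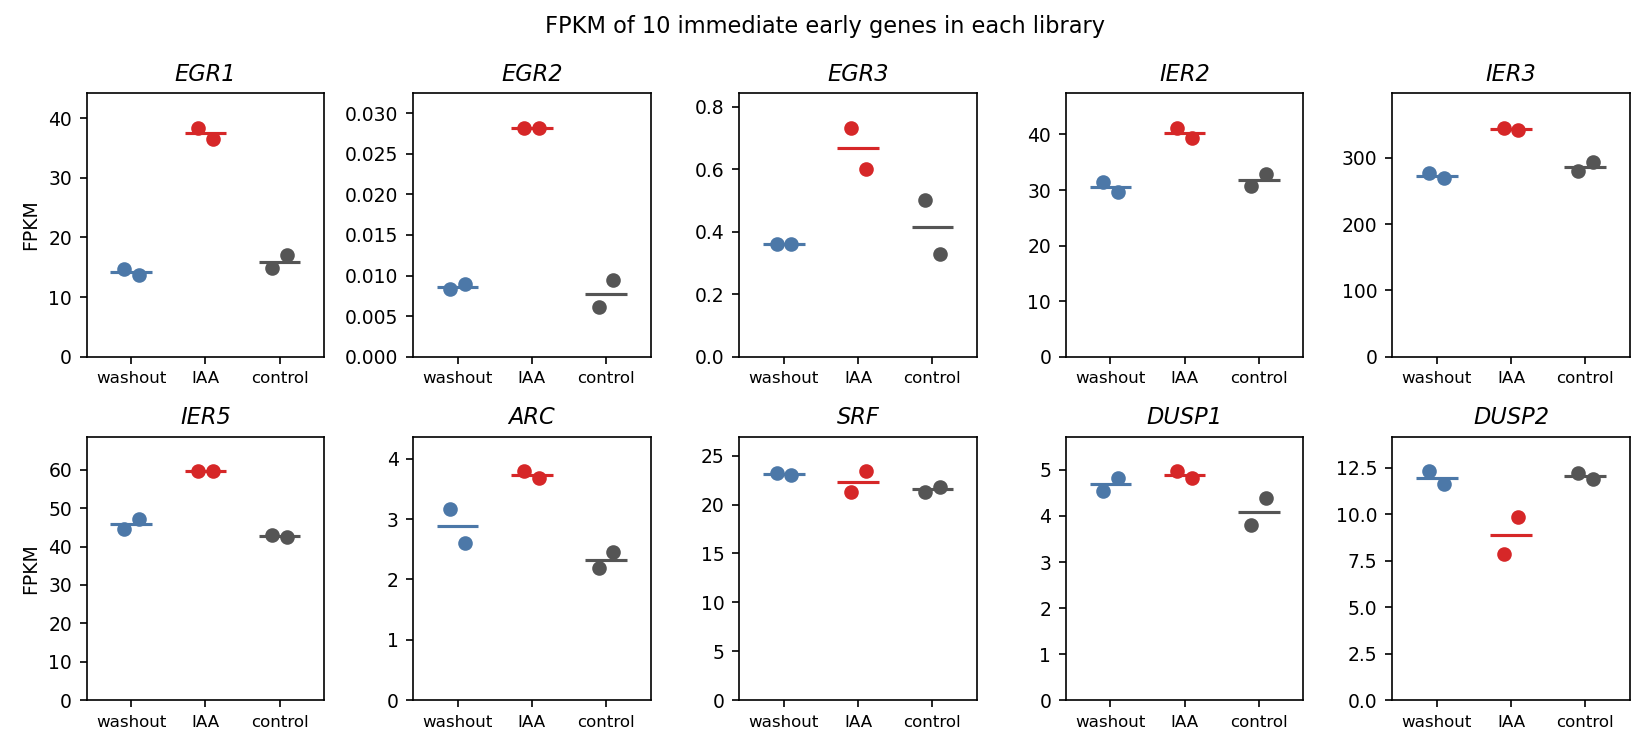
FPKM (y axis, linear from 0, own scale per gene) in each of the 6 libraries, with points for libraries and lines for group means of 2. In EGR1, EGR2, EGR3, IER2, IER3, IER5 and ARC both IAA libraries lie above all 4 others, in DUSP2 both lie below all 4 others, and SRF shows no such separation. In DUSP1 both IAA libraries also lie above all 4 others, but 1 of them and 1 washout library both print as 4.82 and differ only in later digits.

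EGR1 (ENSG00000120738.7), a zinc finger activator induced by growth factors, had 38.4 and 36.5 FPKM with IAA, against 14.8 and 17 FPKM in control. Both IAA libraries lay above both control libraries, on 2415 and 2342 reads against 942 and 1090. The rise was 2.35-fold (37.44 ± 1.34 against 15.91 ± 1.54, SD, n = 2 each, limma log2 change 1.19, SE 0.08, adjusted p = 0.00529), which was rank 32 of the 8317 tested genes by size of log2 change. EGR2 (ENSG00000122877.9), known for its role in myelin and hindbrain formation, had 50 and 51 reads with IAA, against 11 and 17 reads in control. These are few reads, yet the groups were far apart, and EGR2 rose 3.63-fold in mean FPKM (limma-voom log2 change 1.85, SE 0.39, adjusted p = 0.000408). EGR3 (ENSG00000179388.8), which acts in muscle spindles and lymphocytes, had 68 and 57 reads with IAA, against 47 and 31 in control. Its libraries did not overlap either, but the change was not past the threshold (limma-voom log2 change 0.71, 95% interval 0.1 to 1.31, adjusted p = 0.0833). In the annotation 164 exonic bases of EGR3 overlap an opposite-strand transcript, and whether counting used the strand is unknown here.

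SRF (ENSG00000112658.6), the factor that binds CArG boxes and is itself an early growth factor target, had 21.3 and 23.4 FPKM with IAA, against 21.3 and 21.8 FPKM in control. The libraries overlapped and the log2 change was 0.05 (limma 95% interval -0.1 to 0.19, adjusted p = 0.609), an interval that leaves out a change as large as that of EGR1.

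IER5 (ENSG00000162783.8), which promotes the heat shock factor HSF1, had 59.6 FPKM in both IAA libraries, against 42.9 and 42.5 FPKM in control. Both IAA libraries were higher, and it rose 1.4-fold (limma log2 change 0.47, SE 0.043, adjusted p = 0.00968). IER2 (ENSG00000160888.6), a nuclear protein of the first wave of induced genes, had 41.2 and 39.4 FPKM with IAA, against 30.8 and 32.8 FPKM in control. It rose 1.27-fold (limma log2 change 0.33, SE 0.054, adjusted p = 0.0275). IER3 (ENSG00000137331.11), a stress-induced regulator of cell survival and the most abundant of the 10, had 345 and 341 FPKM with IAA, against 280 and 293 FPKM in control, on 6311 to 7759 reads per library. It rose 1.2-fold (limma log2 change 0.26, SE 0.036, adjusted p = 0.0197). Exons of IER2 and IER3 overlap antisense genes over 946 and 359 bases, and reads of the partners cannot be told apart without the strand. ARC (ENSG00000198576.2), a capsid-like protein best known at synapses, had 3.79 and 3.68 FPKM with IAA, against 2.19 and 2.46 FPKM in control. Both IAA libraries were higher, and ARC rose 1.6-fold (limma log2 change 0.51, SE 0.083, adjusted p = 0.0277).

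DUSP1 (ENSG00000120129.5), a nuclear phosphatase of p38, JNK and ERK, had 4.97 and 4.82 FPKM with IAA, against 3.8 and 4.38 FPKM in control. The groups did not overlap, but the change did not pass (1.2-fold, limma log2 change 0.21, 95% interval 0.04 to 0.39, adjusted p = 0.104). DUSP2 (ENSG00000158050.4), a related nuclear phosphatase, had 7.86 and 9.85 FPKM with IAA, against 12.2 and 11.9 FPKM in control. Both IAA libraries were lower, and the IAA replicates lay further apart than those of any other gene above the filter relative to their mean (8.857 ± 1.41 FPKM). DUSP2 stood at 0.734 of control (limma log2 change -0.41, 95% interval -0.68 to -0.14, adjusted p = 0.0667). On recovered reads it was lower (limma-voom log2 change -0.45, SE 0.11, adjusted p = 0.00228), though not without IAA replicate 1 (adjusted p = 0.126).

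With 2 libraries per group the limma calls depend on how many libraries are fitted. Fitting only the control and IAA libraries called 4 of the 8 genes higher, and 270 of all 8317 genes, against 552 in the main fit. IER2 lost its call there with the same log2 change of 0.334 (limma adjusted p = 0.0545). Where 1 control or IAA library is left out, no spread is measured in its group, so only changes are given. The limma log2 change then ran from 1.09 to 1.28 for EGR1, 0.466 to 0.479 for IER5 and 0.29 to 0.377 for IER2. On recovered reads the log2 changes of EGR1, IER2, IER3, IER5 and ARC stayed above 0 whichever of the 6 libraries was left out. They ran from 1.14 to 1.34 for EGR1, 0.597 to 0.768 for ARC and 0.231 to 0.293 for IER3 (limma-voom). The p-values of these fits rest on a spread shared with other genes, so they cannot show that a call holds without a library.

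**Figure D3:**
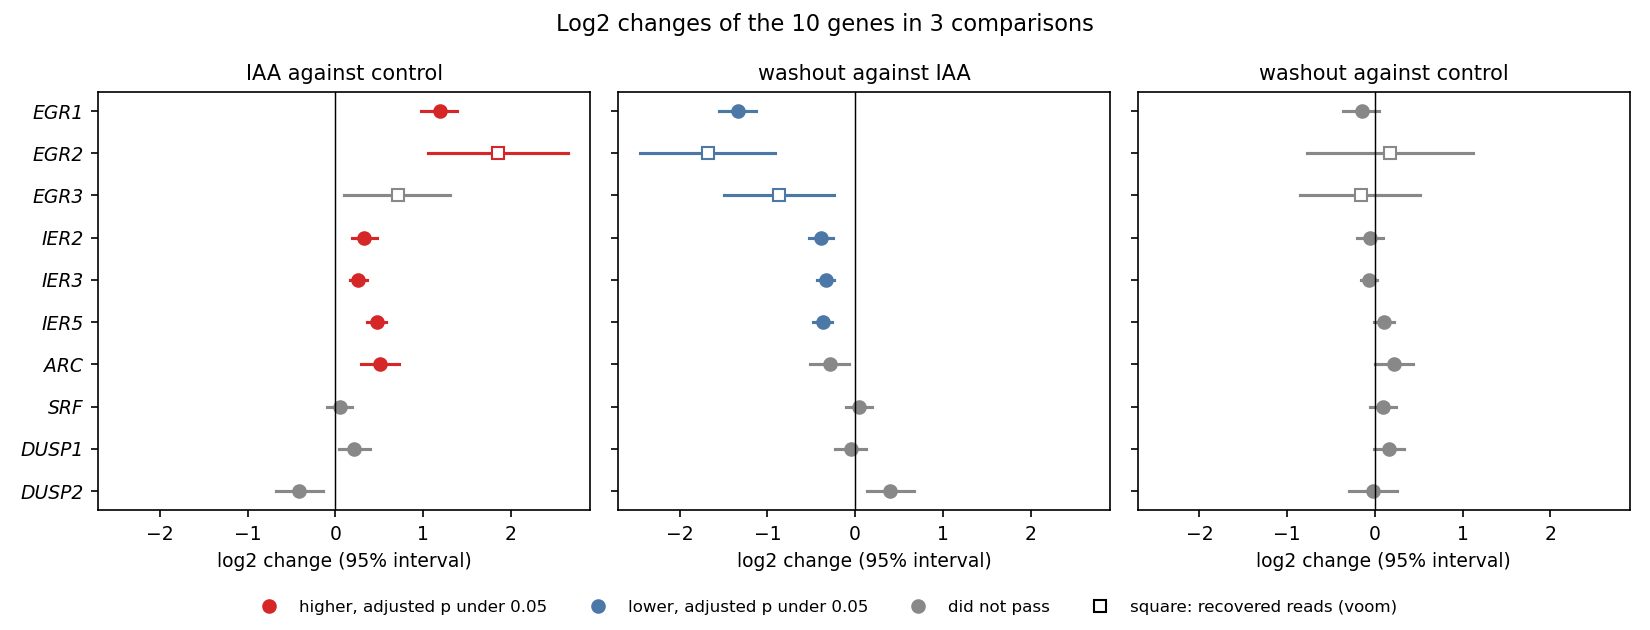
Log2 changes (x axis) with 95% intervals for the 10 genes (rows) in the 3 comparisons. Circles are limma on log2(FPKM + 1), open squares are limma-voom on recovered reads (EGR2 and EGR3), and colour shows an adjusted p under 0.05. The first panel has EGR1 at 1.19 and DUSP2 at -0.41, the second shows the opposite signs for both, and no gene passes in the third.

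After 48 h without IAA, EGR1 and the 3 IER genes stood below their IAA levels, and ARC lay between IAA and control. By limma 4 of the 8 tested genes fell relative to IAA (EGR1, IER2, IER3 and IER5) and 0 rose, where 6.65% of all tested genes fell and 7.73% rose. On recovered reads 7 of the 10 fell and 1 rose, against 13.8% and 11.6% of all genes. Among those that fell, the reads of IER5 and ARC again rest on a fitted gene length. In FPKM 8 of the 10 were lower and 1 higher without overlap, and of the 8 above the filter 6 were lower and 1 higher, where 30.7% of all tested genes were lower and 31.4% higher. This comparison and the one of IAA with control share the IAA libraries, so opposite signs in them are not independent.

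EGR1 had 14.7 and 13.7 FPKM after washout, against 38.4 and 36.5 FPKM with IAA. It fell to 0.379 of the IAA level (limma log2 change -1.34, SE 0.08, adjusted p = 0.00433). EGR2 fell to 15 and 16 reads after washout, against 50 and 51 reads with IAA (limma-voom log2 change -1.68, SE 0.38, adjusted p = 0.000853). For EGR3 there were 34 reads in each washout library, against 68 and 57 reads with IAA. It fell on recovered reads (limma-voom log2 change -0.87, SE 0.31, adjusted p = 0.0342), but had 0.18 without IAA replicate 1, 0.13 without washout replicate 1 and 0.123 without washout replicate 2. On recovered reads the intervals of the log2 change of EGR2 (-2.45 to -0.91) and EGR1 (limma-voom -1.54 to -1.26) overlap. SRF had 23.2 and 23 FPKM after washout, against 21.3 and 23.4 FPKM with IAA, and again no change was detected (limma log2 change 0.05, adjusted p = 0.596).

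IER5 had 44.6 and 47.3 FPKM after washout, against 59.6 and 59.6 FPKM with IAA. It fell to 0.771 of the IAA level (limma adjusted p = 0.0143). IER2 fell to 31.4 and 29.7 FPKM after washout, against 41.2 and 39.4 FPKM with IAA (limma log2 change -0.39, adjusted p = 0.0202). IER3 fell to 277 and 269 FPKM after washout, against 345 and 341 FPKM with IAA (limma log2 change -0.33, adjusted p = 0.0131). In all 3 IER genes both washout libraries lay below both IAA libraries. ARC had 3.16 and 2.6 FPKM after washout, against 3.79 and 3.68 FPKM with IAA. Its washout libraries lay between the IAA and the control libraries, and the change did not pass by limma (log2 change -0.29, adjusted p = 0.0857). On recovered reads ARC fell (limma-voom adjusted p = 0.0391), but not without IAA replicate 1 (0.141), IAA replicate 2 (0.0865) or washout replicate 2 (0.35).

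DUSP2 had 12.3 and 11.6 FPKM after washout, against 7.86 and 9.85 FPKM with IAA. It stood at 1.35-fold (limma log2 change 0.4, adjusted p = 0.0705) and rose on recovered reads (limma-voom adjusted p = 0.00321, and 0.153 without IAA replicate 1). DUSP1 had 4.55 and 4.82 FPKM after washout, against 4.97 and 4.82 FPKM with IAA, where the values that print alike differ only in later digits. Its log2 change was -0.05 (limma 95% interval -0.23 to 0.12, adjusted p = 0.619). Fitting only the washout and IAA libraries called 4 of the 8 genes by limma, and 413 of all 8317 genes, against 1196 in the main fit. Calls that leave 1 library in a compared group are not read here, since no spread is measured in that group. Over 22 alternative settings, with each library left out among them, the log2 change ran from -1.45 to -1.15 for EGR1 and from -0.42 to -0.33 for IER5.

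Washout was also compared with control. Limma called 0 of the 8 tested genes and 0% of all tested genes. At an unadjusted p under 0.05 it had 1 of the 8, ARC, and 750 of all 8317. Limma-voom called 0 of the 10 and 103 of all 14571 genes (0.707%), with 3 of the 10 and 1638 of all 14571 at an unadjusted p under 0.05. In FPKM 4 of the 10 were higher and 2 lower without overlap, and of the 8 above the filter 4 were higher and 2 lower, where 24.4% of all tested genes were higher and 17.8% lower. The 4 higher genes were ARC, DUSP1, IER5 and SRF, and the 2 lower ones EGR1 and IER3. ARC was the furthest above control in fold among the genes over the filter, with 3.16 and 2.6 FPKM after washout, against 2.19 and 2.46 FPKM in control (1.24-fold, limma 95% interval of the log2 change 0 to 0.44, adjusted p = 0.552). DUSP1 stood at 1.14-fold (interval -0.01 to 0.33), IER5 at 1.08-fold (-0.01 to 0.22) and SRF at 1.07-fold (-0.05 to 0.24). EGR1 stood at 0.892 of control (-0.36 to 0.05), IER3 at 0.952 (-0.16 to 0.02), IER2 at 0.962 (-0.2 to 0.09) and DUSP2 at 0.988 (-0.29 to 0.25). EGR2 and EGR3 had the widest intervals, -0.77 to 1.12 and -0.85 to 0.52 (limma-voom), so remaining differences in these genes could not be detected at this depth.

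A list of 40 other immediate early genes was used to place the 10 among their kind, and it holds genes picked from general knowledge with earlier results of these data known. With IAA, 12 of its 33 tested members rose, 9 fell and 12 did not pass (limma), with a median log2 change of 0.02 against 0.01 for all tested genes, of which 6.64% rose and 6.49% fell. FOS, which pairs with JUN proteins in AP-1, rose to 6.85 FPKM with IAA, against 2.36 FPKM in control (log2 change 1.22, SE 0.045, adjusted p = 0.00167). HBEGF, a ligand of the EGF receptor, rose 1.94-fold (adjusted p = 0.00768), and MAFF, a small MAF factor, 1.72-fold (adjusted p = 0.00607). TRIB1, a pseudokinase, fell to 21.6 FPKM with IAA, against 47.5 FPKM in control (limma log2 change -1.1, adjusted p = 0.00167). PLK2, a stress-induced kinase, fell to 0.534 of control and MYC, a driver of growth, to 0.57. IER5L, the relative of IER5, fell to 0.635 of control (limma log2 change -0.62, SE 0.075, adjusted p = 0.0148), so IER5 and IER5L changed in opposite directions. Among other phosphatases of the family DUSP4 (0.88 of control), DUSP5 (0.821) and DUSP6 (0.94) did not pass by limma, while limma-voom had DUSP4 (adjusted p = 0.00349) and DUSP5 (6.08e-05) lower. Fitting only the control and IAA libraries called 18 of the 33, and 536 of all 8317 genes, against 1092 in the main fit. After washout 12 of the 33 fell relative to IAA and 10 rose, where 6.65% of all tested genes fell and 7.73% rose. With only the washout and IAA libraries fitted, 17 of the 33 changed, and 413 of all 8317 genes. Relative to control 0 of the 33 passed by limma, with 7 at an unadjusted p under 0.05 (750 of all 8317 tested genes). By limma-voom 1 of 39 passed there (103 of all 14571).

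**Figure D4:**
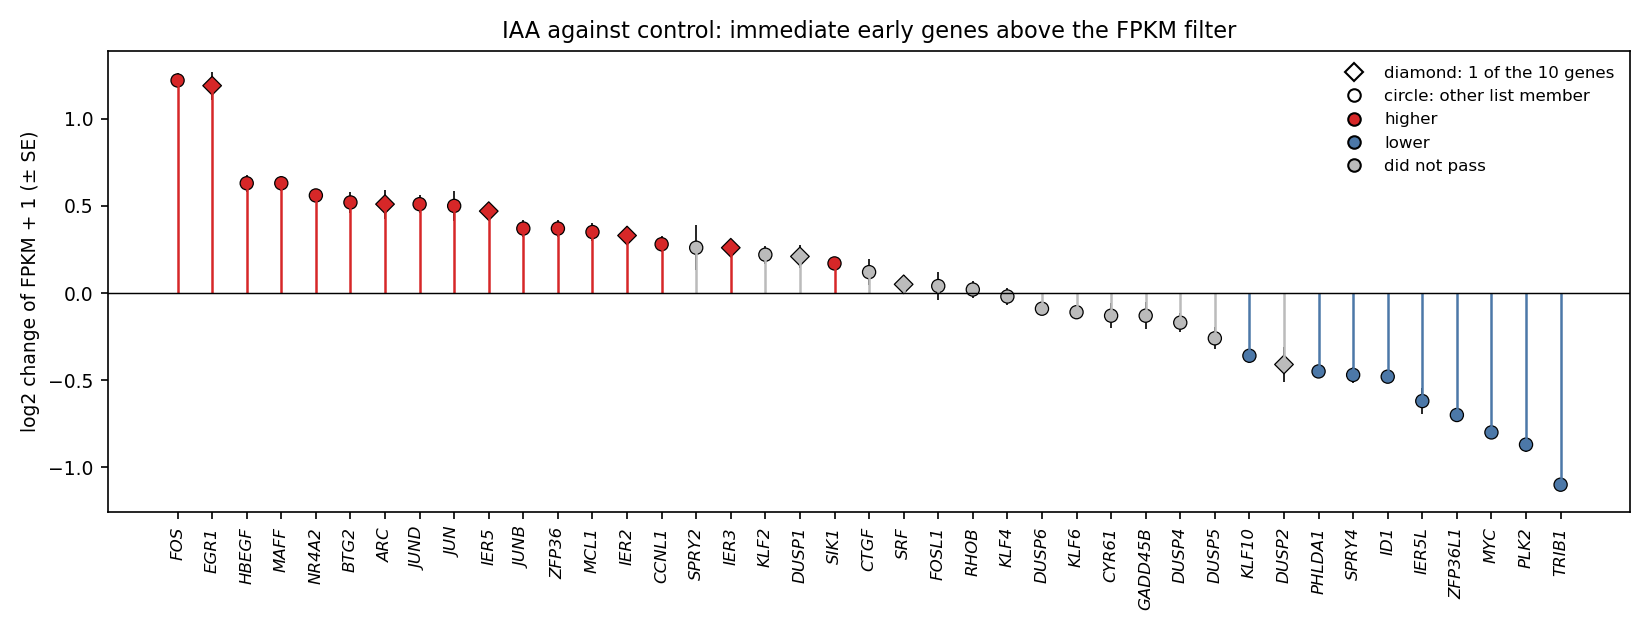
Log2 change of FPKM + 1 with IAA against control (y axis, bars on points are SE) for the 8 genes above the filter (diamonds) and the 33 other immediate early genes tested (circles), sorted by size. On this scale, which understates the change of low genes, FOS and EGR1 are highest at 1.22 and 1.19 (2.9-fold and 2.35-fold in FPKM). TRIB1 lies at the other end at -1.1.

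A further list holds partners of the EGR, SRF and DUSP proteins. Of its 16 tested genes limma called 0 with IAA, where 6.64% of all tested genes rose and 6.49% fell. At an unadjusted p under 0.05 it had 5 of the 16 and 2627 of all 8317. Limma-voom called 9 of 23, with 5 higher and 4 lower, where 14% of all genes rose and 10.3% fell. ELK1, an ETS partner of SRF, had a mean of 4.37 FPKM with IAA, against 3.32 FPKM in control (1.32-fold, limma adjusted p = 0.0855, limma-voom 0.000293). NAB1, a corepressor of EGR proteins, stood at 0.828 (0.0866, limma-voom 0.00171), and its relative NAB2 at 0.962 (0.451, limma-voom 0.491). ELK1 and NAB1 were picked after their values were seen. After washout limma called 0 of the 16 relative to IAA, where 7.73% of all tested genes rose and 6.65% fell. At an unadjusted p under 0.05 it had 4 of the 16 and 2739 of all 8317. Limma-voom called 7 of 23 there, and 3707 of all 14571 genes. Relative to control limma called 0, with 1 at an unadjusted p under 0.05 (750 of all 8317). Limma-voom called 0 of the partners there (103 of all 14571).

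The last list holds cytoskeletal genes regulated by SRF with its MRTF partners. With IAA 0 of 20 tested members rose, 7 fell and 13 did not pass (limma), with a median log2 change of -0.13 against 0.01 for all tested genes, of which 6.64% rose and 6.49% fell. MYL9, a myosin light chain, fell to 8.93 FPKM with IAA, against 15.6 FPKM in control (limma log2 change -0.74, SE 0.049, adjusted p = 0.00498). TAGLN, an actin-bundling protein, fell to 0.593 of control (adjusted p = 0.011), and CNN2, a calponin, to 0.784 (adjusted p = 0.0228). ACTN1 (0.772), ZYX (0.8), VCL (0.855) and ACTG1 (0.898) fell as well. Fitting only the control and IAA libraries called 3 lower and 0 higher, and 536 of all 8317 genes changed. Limma-voom called 11 of 21 lower and 0 higher, where 10.3% of all genes were lower. After washout 8 of 20 rose relative to IAA and 0 fell, where 7.73% of all tested genes rose and 6.65% fell. Among them were MYL9 at 1.72-fold and TAGLN at 1.56-fold. With only the washout and IAA libraries fitted, 4 of the 20 rose, and 413 of all 8317 genes changed. Against control 0 of the 20 passed by limma, with 1 at an unadjusted p under 0.05 (750 of all 8317 tested genes). By limma-voom 1 of 21 passed there (103 of all 14571).

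The genes whose pattern was nearest to that of EGR1 were ranked by Euclidean distance over the 6 libraries, each gene as log2(FPKM + 1) minus its control mean. FOS came first at a distance of 0.17, with 1.97 and 2.12 FPKM after washout, 7.04 and 6.66 FPKM with IAA and 2.32 and 2.4 FPKM in control. STC2 (0.26), a secreted glycoprotein, TIPARP (0.37), an ADP-ribosyltransferase, BTG1 (0.4), an antiproliferative gene, and OVOL1 (0.48), an epithelial transcription factor, followed. Of the other 7 of the 10 genes above the filter the nearest to EGR1 was IER5, at a distance of 1.09 and rank 139, then ARC at 1.1 and rank 145, IER2 at 1.22 and rank 237 and IER3 at 1.32 and rank 447. DUSP2, at 2.29, held rank 7984 among the 8317 tested genes. The added 1 understates the change of low genes, and in mean FPKM FOS rose 2.9-fold with IAA, against 2.35-fold for EGR1. The order therefore belongs to this scale, and an order without the added 1 was not worked out. These distances describe 6 libraries in 3 groups and carry no test.

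**Figure D5:**
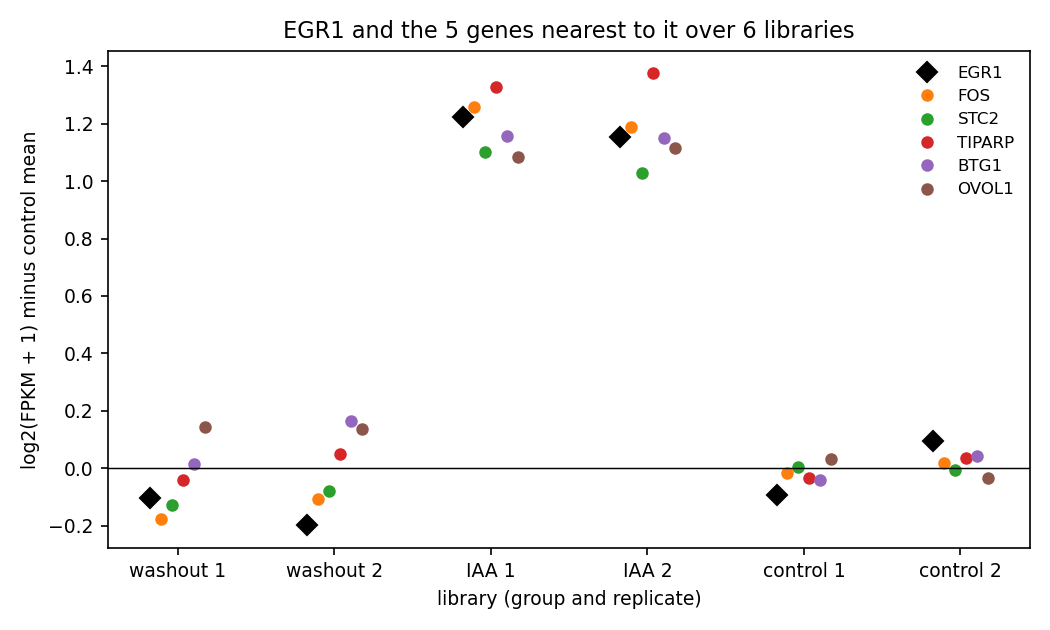
Log2(FPKM + 1) minus the control mean (y axis) of EGR1 (diamonds) and the 5 nearest genes (circles) in each library (x axis). All 6 genes sit above 1 in both IAA libraries and within about 0.2 of the control mean in the other 4.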

How the data were processed

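Poly(A)-selected RNA-seq libraries (2 each after washout, with IAA and in control) were analysed from 1 deposited table of FPKM, 1 value per gene and library. The authors used HISAT, Bowtie2, HTSeq and edgeR with hg19, per the submitters' processing notes. Their versions, roles, annotation and strand setting are unknown here. Genes whose mean FPKM was 1 or more entered limma 3.58.1 (R 4.3.3), fitted to log2(FPKM + 1) with a trended prior variance, 1 mean per group over all 6 libraries, 3 residual and 1.81 prior degrees of freedom, two-sided, with Benjamini-Hochberg adjustment over all tested genes. Rose and fell mean an adjusted p under 0.05. On this scale the change of low genes is understated. Folds divide mean FPKM values.

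Whole reads were recovered as FPKM times library total times length. With GENCODE 29 gene spans 77.7% of 21707 genes above 0 gave whole reads in all libraries (tolerance 0.02), and 4129 more with the nearest length that did. The recovered reads summed to 103.87% to 104.23% of the library totals worked out from the values, so some recovered read numbers or the totals are off. The reason was not tested. EGR1, EGR2, EGR3, IER2, IER3, DUSP1 and DUSP2 matched by span. For IER5, ARC, SRF and MLLT1 the length was fitted, several lengths gave whole reads, and their read numbers are not printed. Genes with at least 10 mean reads were tested with limma-voom. Replicates differed by more than counting (chi-square per gene 2.71 to 3.34). What a replicate stands for is not given, so p-values measure only the spread between these libraries, which may be technical.

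All 10 genes are named. Of each list the 3 highest and 3 lowest log2(FPKM + 1) changes with IAA that passed are named, an order that can differ from that of the folds, and others named besides were chosen after their values were seen. The genes and lists were chosen with earlier results of these data known. The methods were tested on simulated data.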

Additional observations from a re-analysis of the deposited data

How the results depend on the processing

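With 2 libraries per group, the number of calls depended on how many libraries were fitted. Leaving out 1 library gave, for IAA against control, 0 to 4 changed of the 8 genes tested, 4 to 18 other immediate early genes, 0 partners, 0 to 3 cytoskeletal targets and 50 to 534 of all genes. For washout against IAA it gave 1 to 4, 5 to 17, 0, 0 to 4 and 46 to 421, and for washout against control 0 throughout. Where a group is left with 1 library, that library is assumed to vary like the others. Replicate numbers did not pair libraries (correlations of deviations 0.043, 0.006 and -0.027 between groups). With a replicate block, 2 of the 8 genes changed with IAA (EGR1 and IER5), 4 cytoskeletal targets and 486 genes in all, and for washout against IAA 5 cytoskeletal targets and 532 genes in all. Fitting only the groups compared gave 3 and 4 cytoskeletal targets and 536 and 413 genes in all for IAA against control and washout against IAA. A filter at a mean FPKM of 5 gave 501 and 548 genes in all, and 5 cytoskeletal targets for washout against IAA. Limma-voom on recovered reads, which tested more genes, called 9 partners, 11 cytoskeletal targets and 3541 genes with IAA. For washout against IAA it called 8 of the 10 genes, 7 partners, 15 cytoskeletal targets and 3707 genes, and for washout against control 1 other immediate early gene, 1 cytoskeletal target and 103 genes. Rescaling to TPM called 1 partner for washout against IAA, and no filter 48 genes for washout against control. For single genes, 10 of 570 alternative values turned sign, none past the threshold in either fit. Without 1 library, the log2 change of SRF ran from -0.0186 (limma-voom -0.0195, both without IAA replicate 2) to 0.1123 for IAA against control, and from -0.0176 (limma-voom -0.0183, both without IAA replicate 1) to 0.1133 for washout against IAA. For washout against control EGR2 ran from -0.123 (without control replicate 1) to 0.4696 and EGR3 from -0.4674 to 0.1383 (without control replicate 1). DUSP2 there ran from -0.0563 to 0.0238 (without washout replicate 2; limma-voom 0.0258), with 0.0015 (limma-voom 0.0017) without control replicate 1. Another 42 lost and 16 gained the threshold. The fits by limma-voom without 1 library were chosen after seeing the data. The cause of these changes was not tested. The low reads of EGR2 and EGR3 limit what can be seen in them.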
